A study of Mus musculus with 14 samples.

Results

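Transcript levels of 31 genes of cholesterol and fatty acid synthesis were followed across 14 libraries of mouse leukemic stem cells (LSCs), the self-renewing cells of a chronic myeloid leukemia model. The genes were chosen by name, from the known roles of their proteins, out of 24463 genes listed in each library. They comprised 4 genes of the SREBP factors and their regulators (Srebf1, Srebf2, Scap and Insig1), 7 of the mevalonate pathway (Acat2, Hmgcs1, Mvk, Pmvk, Mvd, Idi1 and Fdps) and 11 of the steps from farnesyl diphosphate to cholesterol (Fdft1, Sqle, Lss, Cyp51, Tm7sf2, Msmo1, Nsdhl, Hsd17b7, Ebp, Sc5d and Dhcr7). The other genes were the sterol transporter Stard4 and 8 genes of fatty acid synthesis and desaturation (Acly, Acaca, Fasn, Elovl6, Scd1, Scd2, Fads1 and Fads2).

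All libraries came from lineage-negative bone marrow cells that had been infected in culture with a retrovirus carrying p210 BCR-ABL, the fusion kinase of the disease, and sorted as lineage-negative c-Kit+ Sca1+ GFP+ cells. The fusion was thus present in every group and expressed from a viral vector in cells grown with stem cell factor, thrombopoietin and serum. Untreated LSCs came from control marrow (WT, n = 3) or from Tcf1/Lef1-deficient marrow (dKO, n = 3), which lacks the DNA-binding partners of beta-catenin encoded by Tcf7 and Lef1. Control LSCs were also exposed for 6 h to the vehicle DMSO (n = 3), to 20 µM prostaglandin E1 (PGE1, n = 3) or to 20 µM prostaglandin E2 (PGE2, n = 2). The sources used here do not name how Tcf7 and Lef1 were deleted, nor the strain, sex or age of the mice. Replicates were not described as separate mice or cultures, and the p-values therefore reflect the spread among these libraries alone, which may be technical.

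Cholesterol is built from acetyl-CoA through mevalonate, farnesyl diphosphate and squalene, and fatty acids are built from the same precursor by acetyl-CoA carboxylase and fatty acid synthase. SREBP transcription factors are made as membrane proteins of the endoplasmic reticulum, where SCAP escorts them toward processing in the Golgi when sterols are scarce and INSIG proteins hold them back when sterols are plentiful. SREBP2, the product of Srebf2, mainly drives sterol genes and SREBP1, the product of Srebf1, mainly drives fatty acid genes, and both act on promoters together with NF-Y and Sp1. Growing and leukemic blood cells need both lipid classes for membranes, and farnesyl diphosphate is also used to anchor signalling proteins such as RAS.

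NF-Y binds the CCAAT box, so the promoters of the genes were searched for those 5 letters, CCAAT on either strand (ATTGG on the other), in RefSeq windows from 250 bases before to 50 bases after each annotated start (build GRCm38.p6). Windows were found for 24 of the 31 genes, and Stard4, Fads1, Sqle, Scd2, Fdps, Scd1 and Fdft1 had none in the table. The box was present in 19 of the 24 genes (79.2%), against 41.1% of all 27025 genes with a window and 42.7% of the 8623 that were expressed enough to be tested. At least 2 boxes in 1 window were found in 10 of the 24 genes against 13.3% of all genes, and at least 3 in 6 genes against 3.88%. The following stretches of 90 bases, written 5′ to 3′ on the strand of the gene with the boxes in capitals, show this arrangement in 6 genes that were higher both in dKO cells and after PGE1, and in Fasn, which was higher in dKO cells and lower after PGE1.
Cyp51: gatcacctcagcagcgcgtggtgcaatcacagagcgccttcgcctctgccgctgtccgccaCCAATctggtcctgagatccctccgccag
Msmo1: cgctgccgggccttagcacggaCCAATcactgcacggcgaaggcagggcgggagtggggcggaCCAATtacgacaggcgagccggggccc
Mvk: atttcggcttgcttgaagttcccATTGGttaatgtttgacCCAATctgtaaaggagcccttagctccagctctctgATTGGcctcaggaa
Mvd: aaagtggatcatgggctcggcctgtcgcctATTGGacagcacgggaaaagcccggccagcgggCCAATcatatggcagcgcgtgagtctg
Idi1: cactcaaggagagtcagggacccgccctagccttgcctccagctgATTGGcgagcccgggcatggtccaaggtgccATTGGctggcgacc
Sc5d: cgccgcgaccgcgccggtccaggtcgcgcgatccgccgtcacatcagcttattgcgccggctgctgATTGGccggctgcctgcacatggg
Fasn: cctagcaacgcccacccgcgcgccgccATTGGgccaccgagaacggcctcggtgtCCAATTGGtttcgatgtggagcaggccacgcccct

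The stretches lie at chr5:4104698-4104787 (minus strand) for Cyp51, chr8:64733607-64733696 (minus strand) for Msmo1, chr5:114444179-114444268 (plus strand) for Mvk, chr8:122443423-122443512 (minus strand) for Mvd, chr13:8885516-8885605 (plus strand) for Idi1, chr9:42264301-42264390 (minus strand) for Sc5d and chr11:120824575-120824664 (minus strand) for Fasn. Each is upstream of the annotated transcript and holds between 1 box, as in Cyp51 and Sc5d, and 3 boxes, as in Mvk and Fasn. In Fasn 2 of the 3 boxes overlap as CCAATTGG, which reads as a box on each strand. The Sp1 box GGGCGG, searched on both strands, was in 20 of the 24 genes (83.3%) against 69.4% of tested genes. The E box CACGTG, the same on both strands, was in 5 of the 24 (20.8%) against 12.1%. The core of the classical sterol regulatory element, TCACNCCAC on either strand, was in 1 of the 24, Hmgcs1 (4.17%), against 1.40% of tested genes. These are matches of letters and not measured binding sites, and a missing match says only that the letters are absent from the window.

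**Figure D1:**
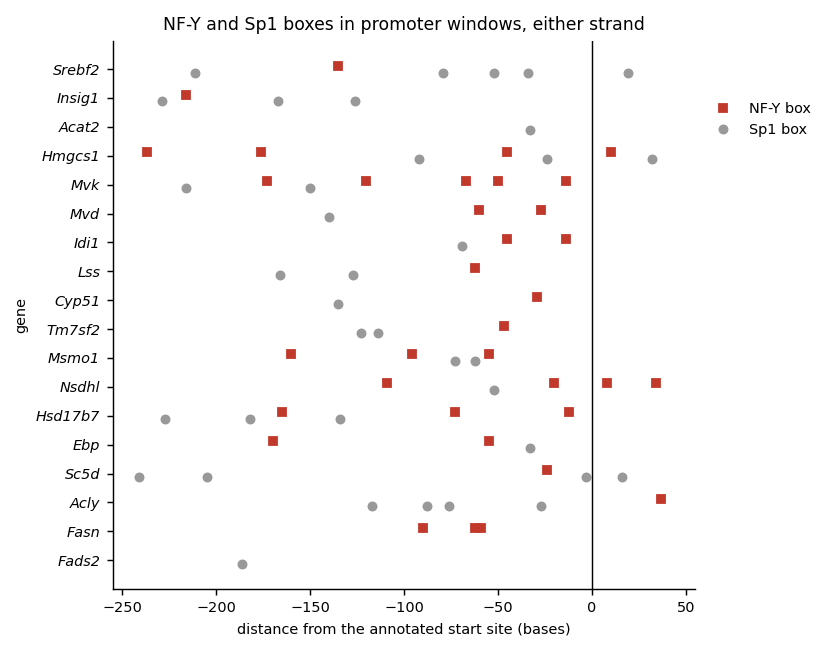
Distance of each NF-Y box (CCAAT, red squares) and Sp1 box (GGGCGG, grey circles) from the annotated start site in bases, on either strand, for genes with a single RefSeq window that holds either box. In Mvd, Idi1, Lss, Cyp51, Tm7sf2, Sc5d and Fasn every NF-Y box lies within the 100 bases before the start.

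Untreated libraries held 31268116 to 33813809 reads and treated libraries 19042213 to 22708474. Tcf7 stood at 1.31 ± 0.167 FPKM (fragments per kilobase of gene model, scaled to library size) in WT and 0.0996 ± 0.0674 in dKO cells, and Lef1 at 0.283 ± 0.0524 and 0.151 ± 0.0411 (SD, n = 3 each, exact permutation p = 0.1 for each, the smallest this design allows). The genotype field contradicted the title of dKO replicate 1 and of DMSO replicate 1, and Tcf7 matched the titles, which set the groups. Replicate 1 of dKO, replicate 1 of DMSO and replicate 2 of PGE1 stood apart from the other libraries of their groups. Pairs that held 1 of these differed by 14.9 to 48.1 times the variance of counting noise, and the remaining pair of each group by 5.33, 1.86 and 12.3 times. No dKO library had a read of the Y-linked genes examined, so sex and genotype cannot be told apart, and Nsdhl and Ebp are X-linked. WT libraries held both the Y-linked Ddx3y (7.72, 8.69 and 8.94 FPKM) and Xist (10.0, 10.6 and 9.81). DMSO libraries also held both, with Ddx3y at 6.49, 7.52 and 8.05 and Xist at 9.05, 11.2 and 11.2. Of the sorting markers, Kit stood at 28.0 FPKM in WT and 23.0 in dKO cells, and Ly6a, which encodes Sca1, at 11.3 and 3.12. The lineage-negative libraries of WT cells also held the monocyte gene Lyz2 at 454 FPKM and the granulocyte precursor gene Elane at 2029.8. In bulk RNA, fewer cells of a type and less RNA per cell cannot be told apart.

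The genes covered a wide range of levels in WT cells, on a scale that corrects for gene length. The most abundant of the 31 were Scd2, the stearoyl-CoA desaturase of non-hepatic tissues, at 132 ± 6.64 FPKM, ATP citrate lyase (Acly) at 96.5 ± 3.61 and fatty acid synthase (Fasn) at 62.5 ± 4.30 (SD, n = 3 each). Srebf2 at 58.0 ± 1.64 FPKM was above Srebf1 at 28.1 ± 0.444. Scd1, the desaturase prominent in liver and fat, stood at only 2.43 ± 0.201 FPKM. The lowest of the 30 genes that could be tested was isopentenyl diphosphate isomerase (Idi1) at 1.61 ± 0.201 FPKM. The HMG-CoA synthase gene Hmgcs1 was listed at no more than 0.0646 FPKM in any of the 14 libraries. The gene model behind this value is not stated, so it is not read as an expression level. Hmgcs1 fell below the minimum mean of 1 FPKM, and 30 of the 31 genes were tested in each comparison. How reads shared with close copies (Scd1 with Scd2, Idi1 with Idi2, Acat2 with Acat3) or with overlapping genes (Fdft1 with Ctsb, Tm7sf2 with Vps51, Acaca with Tada2a, Srebf1 with Rai1) were counted is not stated, so these genes are less certain.

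**Figure D2:**
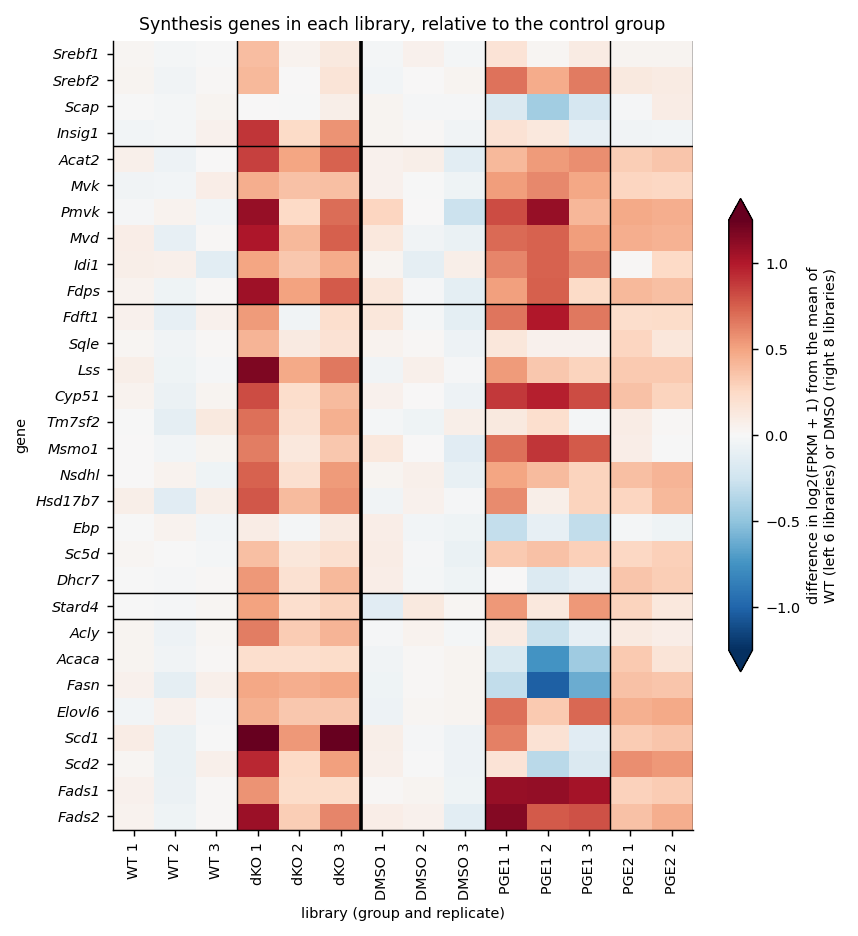
Difference in log2(FPKM + 1) of each library (columns) from the mean of its control group, WT for the 6 untreated and DMSO for the 8 treated libraries, for the 30 genes tested (rows, ordered by role, with lines between roles). Most rows are red in dKO, strongest in replicate 1. After PGE1 most sterol rows are red while Ebp, Scap, Fasn and Acaca are blue, and after PGE2 most rows are pale red. Values beyond the colour scale, as for Scd1 in dKO, have its end colour.

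The comparison of dKO with WT cells asked how loss of Tcf1 and Lef1 bears on these genes. Of the 30 genes tested, 25 were higher in dKO cells and 0 lower, where 18% of all 10721 genes tested were higher and 22.9% lower (limma on log2(FPKM + 1), adjusted p below 0.05 over all genes). At an unadjusted p under 0.05 the counts were also 25 and 0, with no share of all genes given at that level. Their median log2 difference was 0.44, against -0.01 over all genes. A fold is the ratio of mean FPKM, so a fold below 1 is a decrease. The rise covered both arms of the pathway, with 15 of 17 sterol enzymes tested and 8 of 8 fatty acid genes higher. The 5 genes that did not pass were Srebf1, Srebf2 and Scap, the squalene synthase gene Fdft1 and the sterol isomerase gene Ebp.

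Among the regulators, Srebf2 read 77.2, 58.3 and 65.0 FPKM in the dKO libraries and 59.4, 56.2 and 58.4 in WT. The groups overlapped and the log2 difference of 0.19 did not pass (limma adjusted p = 0.126). Srebf1 read 37.0, 29.1 and 30.7 FPKM in dKO and 28.6, 27.7 and 28.1 in WT cells, with every dKO library higher but a difference of 0.19 that did not pass (adjusted p = 0.103). Scap, the SREBP escort, read 22.5, 22.5 and 23.7 against 22.5, 22.1 and 23.0 and was within the spread (log2 difference 0.02, adjusted p = 0.673). Insig1, which retains SREBP in the endoplasmic reticulum and is itself an SREBP target, was the exception. It read 53.9, 33.9 and 42.5 FPKM in dKO and 27.9, 28.1 and 29.6 in WT cells, 1.52-fold higher with no overlap (log2 difference 0.57, SE 0.141, adjusted p = 0.0156). The Insig1 call was lost without WT replicate 1 or WT replicate 2, with an adjusted p of at most 0.0533.

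In the mevalonate pathway all 6 genes tested were higher in dKO cells. Acat2, the cytosolic acetyl-CoA acetyltransferase that makes the first intermediate, read 21.2, 16.2 and 19.5 FPKM against 11.8, 10.7 and 11.3 in WT. All dKO libraries were above all WT libraries, by 1.68-fold in the means (log2 difference 0.69, SE 0.0906, adjusted p = 0.000856). Mevalonate kinase (Mvk), whose promoter stretch is printed above, read 17.9, 16.8 and 16.8 against 12.3, 12.4 and 13.5, a tight 1.34-fold rise (adjusted p = 0.000742). Farnesyl diphosphate synthase (Fdps), at the branch between sterols and protein prenylation, read 60.4, 40.7 and 49.3 against 29.3, 27.4 and 28.8. The dKO values spread widely but none reached down to WT (1.76-fold, log2 difference 0.78, SE 0.122, adjusted p = 0.00208). Mevalonate diphosphate decarboxylase (Mvd), phosphomevalonate kinase (Pmvk) and Idi1 were 1.69-fold, 1.68-fold and 1.57-fold higher.

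From squalene to cholesterol, 9 of 11 genes were higher in dKO cells, with log2 differences between 0.24 and 0.77. Lanosterol synthase (Lss), which closes the sterol rings, rose most, from 8.20 ± 0.403 to 15.0 ± 4.13 FPKM (1.83-fold, adjusted p = 0.00667). Lanosterol demethylase (Cyp51) stood at 34.9 ± 7.87 against 24.4 ± 1.15 FPKM, and the C4-demethylation enzymes Msmo1, Nsdhl and Hsd17b7 were 1.32-fold, 1.45-fold and 1.60-fold higher. The sterol desaturase Sc5d (1.19-fold), the sterol reductases Tm7sf2 (1.42-fold) and Dhcr7 (1.32-fold) and squalene epoxidase (Sqle, 1.19-fold) also rose. Fdft1 at 9.08 ± 2.01 against 7.49 ± 0.504 FPKM and Ebp at 24.9 ± 1.29 against 23.9 ± 0.683 did not pass. Stard4, which carries sterol between membranes, was 1.27-fold higher (adjusted p = 0.00918).

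All 8 fatty acid genes were higher. Fasn read 87.4, 85.7 and 87.9 FPKM in dKO and 64.8, 57.5 and 65.1 in WT cells. The dKO libraries were close together and all above WT, with the smallest p of the 30 genes (1.39-fold, log2 difference 0.47, SE 0.0521, adjusted p = 0.000377). Elovl6, which lengthens palmitate to stearate, read 11.3, 10.4 and 10.5 against 7.87, 8.37 and 7.93, again without overlap (1.33-fold, adjusted p = 0.00103). Acly, which supplies cytosolic acetyl-CoA, read 151, 121 and 129 against 99.1, 92.3 and 98.0, and every dKO library was higher (1.38-fold, adjusted p = 0.00282). Acetyl-CoA carboxylase (Acaca) went from 3.99 ± 0.143 to 4.80 ± 0.0611 FPKM, a call lost without WT replicate 2 and in 1 fit of all 14 libraries (adjusted p of at most 0.155), while the desaturases Scd2, Fads1 and Fads2 were 1.52-fold, 1.28-fold and 1.63-fold higher. Scd1, chosen here after its values were seen, read 15.7, 3.97 and 8.04 FPKM in dKO against 2.64, 2.24 and 2.40 in WT cells. Its 3.82-fold rise was the largest of the 30 genes and rested on widely spread libraries (log2 difference 1.41, SE 0.370, adjusted p = 0.0189).

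The dKO libraries differed from one another along the whole pathway. Replicate 1 was the highest dKO library in 26 of the 30 genes, against 38.5% of all genes, and replicate 2 was the lowest in 29 of 30, against 29.8% of all genes. Replicate 1 was the highest of all 14 libraries in 21 of the 30 genes, against 8.60% of all genes. Relative to the WT mean, the 30 genes had a median log2 difference of 0.60 in replicate 1, 0.23 in replicate 2 and 0.41 in replicate 3. Without replicate 1 the count of genes called higher was also 25. It fell to 13 without WT replicate 2 and to 17 without WT replicate 1 or WT replicate 3. Sqle was the least stable call, past the threshold in 7 of 14 alternative settings, followed by Msmo1, Pmvk and Scd1 in 9 of 14. Of all calls in the deposited scale 44.1% were higher in dKO, which became 59.8% with quantile normalization and 56.2% with scaling by median ratios, and with these scalings 23 and 26 of the 30 genes were higher and 0 lower.

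**Figure D3:**
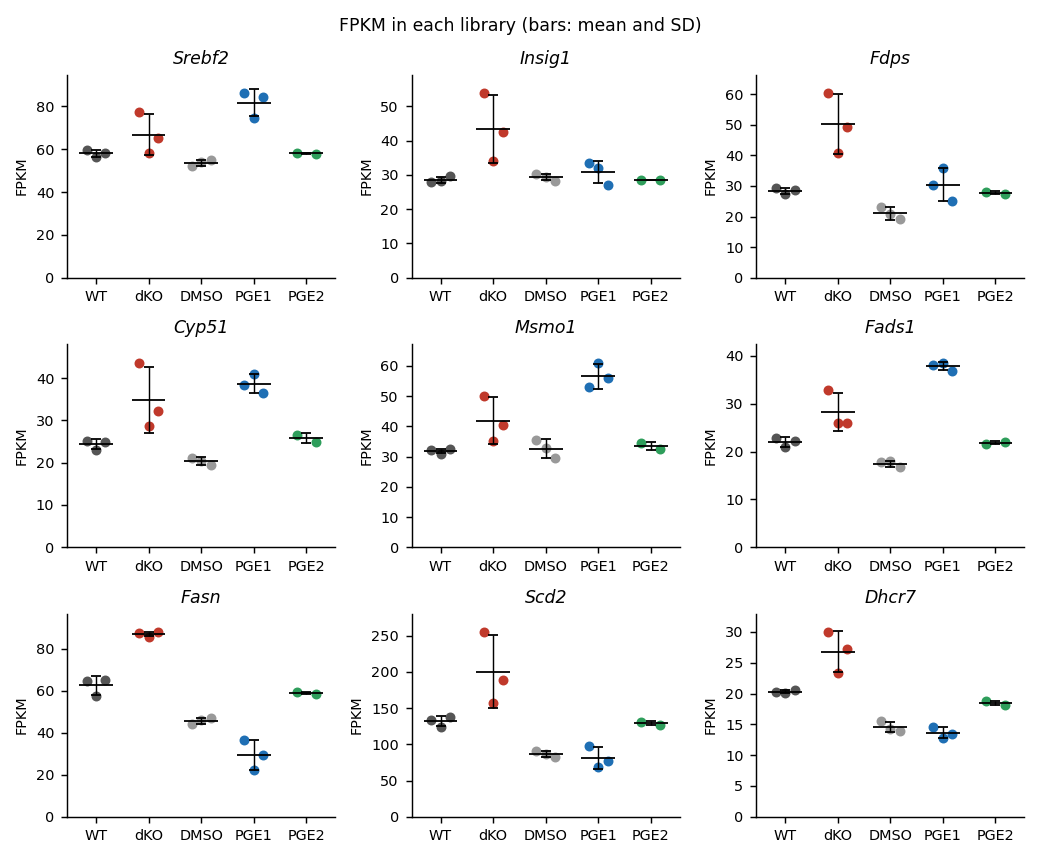
FPKM of 9 genes in each library (points) by group, with the group mean (wide bar) and SD (error bar), on axes that start at 0. Fdps, Fasn, Scd2 and Dhcr7 are highest in dKO, Srebf2, Msmo1 and Fads1 are highest after PGE1, and Fasn is lowest after PGE1.

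Related lists, also chosen with results of these data known, moved less evenly in dKO cells, where 18% of all genes were higher and 22.9% lower. Among genes of fatty acid supply and elongation, 5 of 14 tested were higher and 1 lower, such as the mitochondrial citrate carrier Slc25a1 (83.0 ± 10.2 against 58.1 ± 2.07 FPKM), the elongase Elovl5 (1.19-fold) and Mid1ip1, a partner of acetyl-CoA carboxylase (1.31-fold). Of 10 genes of the isoprenoid and late sterol branches 3 were higher and 1 lower, with the farnesyltransferase subunit Fntb 1.16-fold higher and mitochondrial Acat1 lower (0.863-fold). Genes of sterol export and the LXR receptors gave 0 higher and 4 lower of 6 tested, among them the phospholipid transfer protein gene Pltp (0.970 ± 0.179 against 2.79 ± 0.0413 FPKM), the sterol esterifying enzyme Soat1 (0.798-fold) and the exporter Abcg1 (0.466-fold). Of 7 genes of SREBP processing and turnover only Erlin1 was called, lower at 0.881-fold, and of 16 fatty acid oxidation genes 1 was higher and 2 lower. Medians of the log2 difference were 0.15 for supply, 0.02 for isoprenoid branches, -0.22 for export, -0.03 for processing and -0.01 for oxidation, beside -0.01 over all genes.

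Other gene sets also differed in dKO cells, several of them downward, where 18% of all genes were higher and 22.9% lower. Of 16 genes of the G1/S transition 14 were higher and 0 lower, with a summed level of 981 to 1017 FPKM in dKO against 868 to 878 in WT libraries. All 10 monocyte and macrophage markers were lower, with sums of 177 to 192 FPKM in dKO against 877 to 917 in WT, and all 8 megakaryocyte markers were lower, with sums of 55.4 to 108 against 236 to 258. Of the defining genes, Lyz2 stood at 49.9 against 454 FPKM and Pf4 at 37.6 against 144, so none was at 0. Of 9 neutrophil markers tested 3 were higher and 5 lower, with sums of 7445 to 7590 against 5792 to 6115. Most of these sums came from Elane (2806 against 2030 FPKM) and Mpo (3150 against 2499). Ltf (3.26 against 22.4) and Camp (8.27 against 49.2) were among the lower markers, so the sum does not stand for the list. Markers of the sorted stem and progenitor cells were lower in 6 of 8, mast cell markers in 4 of 6 and erythroid markers in 3 of 6, with none higher. Of 4 B lymphoid markers tested 2 were higher and 0 lower. Vpreb1 read 4.71, 1.42 and 3.90 FPKM in dKO against 1.44, 0.975 and 0.668 in WT libraries. Igll1 read 4.93, 2.65 and 4.48 against 1.30, 0.968 and 0.832. In both, replicate 1 was the highest dKO library and replicate 2 the lowest. Cd79a, which did not pass, read 2.80, 0.468 and 2.21 against 1.87, 0.823 and 1.11. Cd79b, the most abundant, read 6.02, 6.54 and 8.25 against 7.75, 7.38 and 8.03. It did not pass either, and replicate 1 was its lowest dKO library. The part of these gene sets in the rise of the synthesis genes was not tested.

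PGE1 was compared with vehicle to ask what 6 h of the prostaglandin did to control LSCs. Of the 30 genes, 17 were higher after PGE1 and 4 lower, where 23.6% of all 11242 genes tested were higher and 25.5% lower. The 30 genes had a median log2 difference of 0.39, against 0.01 over all genes. Of 17 sterol enzymes 12 were higher and 1 lower (Ebp). Of 8 fatty acid genes 3 were higher (Elovl6, Fads1 and Fads2) and 2 lower (Acaca and Fasn). The 2 lower of 8 are close to the share of lower genes among all genes. Ebp stood at 19.9 ± 1.77 FPKM against 23.6 ± 1.30 after DMSO. It passed in 11 of 15 alternative settings (limma adjusted p of at most 0.0897).

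Srebf2 itself was higher, reading 86.2, 74.5 and 84.5 FPKM after PGE1 and 52.2, 53.9 and 54.8 after DMSO. The groups were well apart (1.52-fold, log2 difference 0.60, SE 0.0680, adjusted p = 0.000156). Srebf1, in contrast, read 32.8, 29.6 and 31.4 against 28.6, 30.2 and 28.5, overlapped and did not pass (log2 difference 0.10, adjusted p = 0.190). Scap was lower at 16.3, 13.4 and 16.0 FPKM against 19.0, 18.3 and 18.4, without overlap (0.819-fold, adjusted p = 0.0181), a call lost without DMSO replicate 1 (adjusted p = 0.0552). Insig1 read 33.4, 32.2 and 27.2 against 30.1, 29.5 and 28.3 and was within the spread (log2 difference 0.07, adjusted p = 0.494).

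The 6 mevalonate genes tested were all higher after PGE1. Mvk read 15.7, 16.6 and 15.2 FPKM against 11.0, 10.6 and 10.2, a gap of several times the spread (1.49-fold, log2 difference 0.54, SE 0.0617, adjusted p = 0.000161). Idi1 was 1.97-fold, Pmvk 1.78-fold, Mvd 1.60-fold, Acat2 1.47-fold and Fdps 1.45-fold higher. Among the later enzymes, Cyp51 read 38.4, 41.1 and 36.6 against 21.2, 20.5 and 19.5. All PGE1 libraries lay far above vehicle (1.90-fold, log2 difference 0.89, SE 0.0653, adjusted p = 1.56e-05). Msmo1, the C4-methylsterol oxidase, read 53.0, 61.1 and 55.9 against 35.6, 32.7 and 29.4, likewise with no overlap (1.74-fold, adjusted p = 0.000113). Fdft1 was 1.82-fold, Lss 1.35-fold, Nsdhl 1.33-fold and Sc5d 1.27-fold higher. Sqle at 37.8 ± 1.35 against 35.6 ± 1.39 FPKM and Dhcr7 at 13.6 ± 0.904 against 14.6 ± 0.845, genes of the same route, did not pass, nor did Tm7sf2 and Hsd17b7. Stard4 was 1.35-fold higher, a call lost without DMSO replicate 1 or 3 and without PGE1 replicate 1 or 3 (adjusted p of at most 0.0790).

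The desaturases of polyunsaturated fatty acids, Fads1 and Fads2, rose most of the 30 genes on the log2(FPKM + 1) scale. Fads1 read 38.2, 38.6 and 36.9 FPKM after PGE1 and 17.7, 17.9 and 16.8 after DMSO. The libraries of each group were close together and the gap was wide (2.17-fold, log2 difference 1.07, SE 0.0544, adjusted p = 2.43e-06). Fads2 read 75.2, 57.5 and 58.6 against 35.5, 34.7 and 30.3 (1.90-fold, adjusted p = 0.000204), and Elovl6 was 1.60-fold higher. Fasn, given by library here after its values were seen, went the other way at 36.6, 22.1 and 29.4 against 44.0, 46.2 and 46.9. Every PGE1 library was below every DMSO library and replicate 2 was the lowest (0.642-fold, log2 difference -0.65, SE 0.148, adjusted p = 0.00626). Acaca, the step before Fasn, was lower at 1.72 ± 0.521 against 2.69 ± 0.101 FPKM (0.637-fold, adjusted p = 0.0217), a call lost without DMSO replicate 2 or DMSO replicate 3 (adjusted p of at most 0.0630). Acly, Scd1 and Scd2 did not pass, with log2 differences of -0.09, 0.22 and -0.12.

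PGE1 libraries also differed among themselves in the fatty acid arm. Relative to the DMSO mean, the median log2 difference of the 17 sterol enzymes was 0.53, 0.54 and 0.29 in replicates 1, 2 and 3, and that of the 8 fatty acid genes was 0.40, -0.05 and -0.12. Without the libraries that stand apart, DMSO replicate 1 and PGE1 replicate 2, a setting chosen after seeing the data, 18 genes were higher and 4 lower. The count of lower genes was 2 without DMSO replicate 1 and 2 without DMSO replicate 2.

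**Figure D4:**
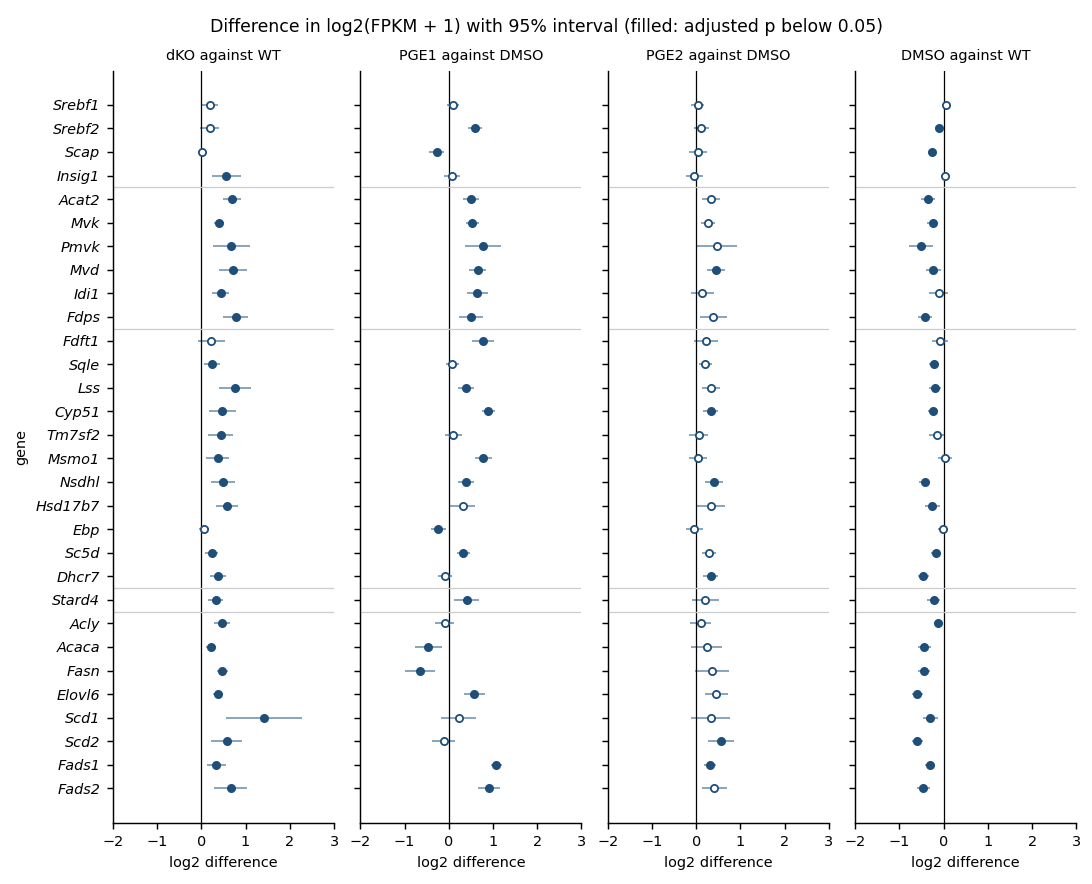
Difference in log2(FPKM + 1) of each gene in 4 comparisons, with 95% intervals from limma. Filled points have an adjusted p below 0.05 and grey lines separate roles. In dKO all filled points lie to the right, after PGE1 Scap, Ebp, Acaca and Fasn lie to the left, after PGE2 6 points are filled, and in DMSO against WT all filled points lie to the left.

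The related lists after PGE1 are read beside 23.6% of all genes higher and 25.5% lower. Fatty acid supply and elongation gave 5 higher and 3 lower of 15 tested. Acss2, which makes acetyl-CoA from acetate, stood at 18.9 ± 0.769 against 5.99 ± 0.427 FPKM (3.16-fold, adjusted p = 1.74e-06), the phosphatidate phosphatase Lpin1 was 3.11-fold and Fads3 1.49-fold higher. Of 16 fatty acid oxidation genes 7 were higher and 2 lower, with the carnitine transferase Cpt1a at 49.0 ± 5.42 against 24.4 ± 2.24 FPKM (2.01-fold) and the electron carrier subunit Etfb at 0.541-fold. Sterol export divided into 3 higher and 3 lower of 8 tested. The exporter Abca1 was at 4.87 ± 1.01 against 0.968 ± 0.0676 FPKM (5.03-fold) and Abcg1 at 3.04 ± 0.171 against 6.14 ± 0.132 (0.494-fold), while the LXR beta gene Nr1h2 was 1.39-fold higher. SREBP processing gave Insig2 higher (1.21-fold) and Erlin1 lower (0.599-fold) of 7, and the isoprenoid branches 1 higher and 5 lower of 10, with mitochondrial Acat1 (0.702-fold) and Pdss1, of ubiquinone synthesis (0.514-fold), lower and Ggps1, which makes the geranylgeranyl donor, higher (1.33-fold). Medians of the log2 difference were 0.15 for supply, 0.12 for oxidation, -0.03 for export, -0.08 for processing and -0.20 for isoprenoid branches, beside 0.01 over all genes.

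Markers of several cell types also differed after PGE1, where 23.6% of all genes were higher and 25.5% lower. G1/S genes were lower in 11 of 16 and higher in 0, with sums of 488 to 522 FPKM against 601 to 652. Neutrophil markers were lower in 6 of 9 tested and higher in 0, with sums of 1507 to 2194 against 3950 to 4699, and monocyte markers gave 4 higher and 5 lower of 10. Mast cell markers were higher in 5 of 7 and erythroid markers in 5 of 6, with erythroid sums of 93.9 to 107 against 30.6 to 31.9. The 4 Y-linked genes tested were higher and Xist was lower, at 8.14, 3.54 and 6.19 FPKM after PGE1 against 9.05, 11.2 and 11.2 after DMSO. Their part in the differences of the synthesis genes was not tested.

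PGE2 at the same dose and time gave fewer calls than PGE1. Of the 30 genes, 6 were higher and 0 lower (Fads1, Mvd, Nsdhl, Cyp51, Scd2 and Dhcr7), where 0.996% of all genes were higher and 4.57% lower. In 23 of the 30 genes both PGE2 libraries were above all 3 DMSO libraries, against 25% of all genes. At an unadjusted p under 0.05, 16 were higher and 0 lower, with no share of all genes at that level to set beside them. Over the 30 genes the median log2 difference was 0.29, against 0.00 over all genes. All 8 fatty acid genes were higher in both PGE2 libraries than in any DMSO library, with a median log2 difference of 0.35, and 2 of them passed.

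Fads1 read 21.6 and 22.0 FPKM after PGE2, above the DMSO values given earlier (1.25-fold, log2 difference 0.30, SE 0.0608, adjusted p = 0.0238). Scd2 read 131 and 127 against 91.0, 86.7 and 82.8 and had the largest difference of the 30 genes (1.48-fold, log2 difference 0.57, SE 0.132, adjusted p = 0.0440). Mvd read 32.5 and 32.3 against 26.0, 22.8 and 22.1 (1.37-fold, adjusted p = 0.0264). In all 3 genes the PGE2 libraries were close together and above vehicle. Nsdhl read 16.0 and 16.6 against 12.4, 12.7 and 11.3 (1.35-fold, adjusted p = 0.0303). Cyp51 read 26.6 and 24.9 (1.26-fold, adjusted p = 0.0392). Dhcr7 read 18.7 and 18.2 against 15.5, 14.2 and 13.9 (1.27-fold, adjusted p = 0.0488), with no overlap in any of these 3 either.

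The regulators did not pass after PGE2. Srebf2 read 58.3 and 57.8 FPKM, both above DMSO, with a log2 difference of 0.11 (adjusted p = 0.453). Srebf1 at 29.7 and 29.8, Scap at 18.4 and 19.9 and Insig1 at 28.4 and 28.6 lay within the range of vehicle or close to it. Genes just short of the threshold included Sc5d (1.23-fold, adjusted p = 0.0558), Elovl6 (1.45-fold, adjusted p = 0.0612) and Mvk (1.22-fold, adjusted p = 0.0616). Fasn stood at 58.9 ± 0.600 against 45.7 ± 1.51 FPKM and did not pass in this fit (adjusted p = 0.261), whose spread is shared with the PGE1 libraries. The count of 6 became 0 when replicate number was entered as a block, 0 without DMSO replicate 2, DMSO replicate 3 or either PGE2 library, 4 without DMSO replicate 1 and 3 without the intensity trend. The related lists and markers are read beside 0.996% of all genes higher and 4.57% lower. Of the related lists, Abcg1 (0.659-fold) and Fads3 (0.670-fold) were lower, and Cdc45 was the only G1/S gene called (1.37-fold higher). For SREBP processing, isoprenoid branches and fatty acid oxidation 0 genes passed in limma. At an unadjusted p under 0.05 these lists gave 0, 2 and 1 higher and 1, 1 and 3 lower. G1/S genes gave 10 higher and 1 lower of 16 at that level, with sums of 726 to 732 FPKM against 601 to 652. No share of all genes is given at that level, so these unadjusted counts cannot be set against it. Monocyte markers gave 3 calls higher and 0 lower of 10, with sums of 1186 to 1190 FPKM against 908 to 1057. Neutrophil markers gave 1 higher and 0 lower of 9, with sums of 5806 to 5858 against 3950 to 4699. Much of the monocyte sum came from Lyz2 (588 against 468 FPKM). Elane (1832 against 1275) and Mpo (1946 against 1331) gave most of the neutrophil sum, so the sums do not stand for the lists. The part of the G1/S and marker genes was not tested.

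PGE1 and PGE2 were then compared directly, as 1 pair of related compounds at matched dose and time. PGE2 differs from PGE1 by an additional double bond in the carboxyl side chain. Of the 30 genes, 8 were higher after PGE1 and 5 lower, where 27.2% of all genes were higher and 26.7% lower. The 30 genes were thus called no more often than genes at large. Their median log2 difference was 0.09, against 0.02 over all genes. Sterol genes and the Fads genes made up the higher group (Srebf2, Mvk, Idi1, Fdft1, Cyp51, Msmo1, Fads1 and Fads2), and Fasn, Acaca, Scd2, Dhcr7 and Scap were lower after PGE1.

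Fads1 was 1.74-fold higher after PGE1 than after PGE2, with the library values given above not overlapping (log2 difference 0.77, SE 0.0608, adjusted p = 2.64e-05). Msmo1 read 53.0, 61.1 and 55.9 FPKM after PGE1 and 34.5 and 32.5 after PGE2 (1.69-fold, adjusted p = 0.000244). Cyp51 and Srebf2 were 1.50-fold and 1.41-fold higher after PGE1 (adjusted p = 0.000263 and 0.000792). Fasn read 36.6, 22.1 and 29.4 against 59.3 and 58.5 after PGE2, the largest difference of the 30 genes in this comparison. Its mean after PGE1 was 0.498 of that after PGE2 (log2 difference -1.01, SE 0.166, adjusted p = 0.000988). Dhcr7, the 7-dehydrocholesterol reductase, read 14.6, 12.8 and 13.4 against 18.7 and 18.2 (0.738-fold, adjusted p = 0.00209), and Scd2 and Acaca were 0.628-fold and 0.509-fold.

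For 17 genes no difference between the compounds was detected. The 95% interval of the log2 difference was -0.21 to 0.18 for Nsdhl, -0.11 to 0.21 for Sc5d, -0.14 to 0.26 for Lss and -0.08 to 0.22 for Srebf1, so differences within those bounds remain possible. Intervals were wider for Pmvk (-0.14 to 0.77), Scd1 (-0.55 to 0.33) and Fdps (-0.20 to 0.43). The count of higher genes was 5 without PGE2 replicate 1. Among the related lists Acss2 was 3.92-fold, Lpin1 2.75-fold, Fads3 2.23-fold, Cpt1a 2.51-fold and Abca1 2.50-fold higher after PGE1. Of 16 G1/S genes 14 were lower, beside 26.7% of all genes.

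**Figure D5:**
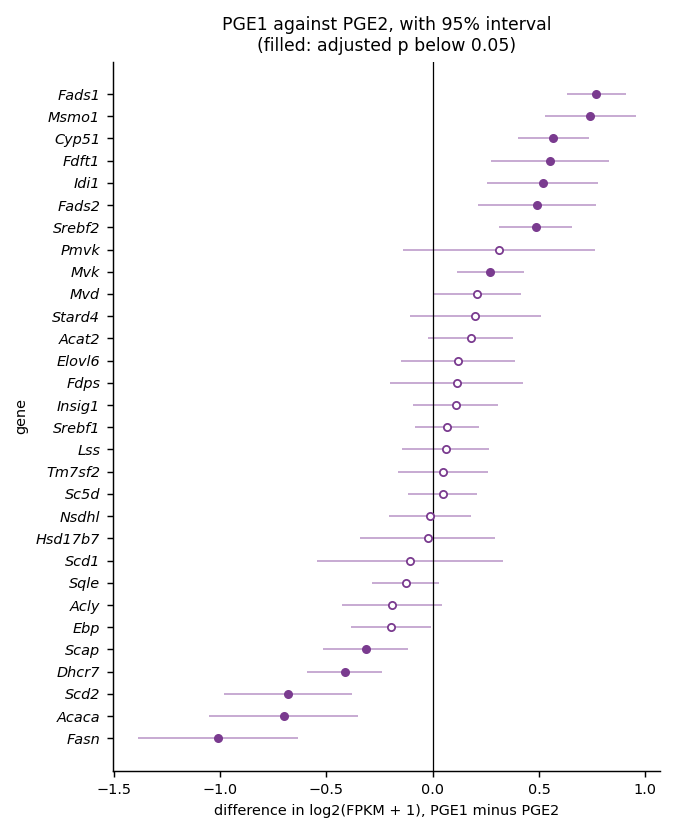
Difference in log2(FPKM + 1) between PGE1 and PGE2 for each of the 30 genes, with 95% intervals from limma, ordered by size. Filled points have an adjusted p below 0.05. The 8 filled points to the right are led by Fads1 and Msmo1 and the 5 to the left by Fasn, Acaca and Scd2.

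Vehicle-treated and untreated control cells differed in these genes as well. Of the 30 genes, 0 were higher and 23 lower after DMSO than in WT cells, where 26% of all 11115 genes tested were higher and 30.7% lower. At an unadjusted p under 0.05 the counts were also 0 and 23, with no share of all genes given at that level. The 30 genes had a median log2 difference of -0.24, against -0.03 over all genes. All 8 fatty acid genes and 12 of 17 sterol enzymes were lower, although Acly passed in only 4 of 14 alternative settings. The treated libraries were also shallower, so treatment and any difference in how the libraries were made cannot be told apart.

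Scd2 read 91.0, 86.7 and 82.8 FPKM after DMSO and 134, 124 and 137 in WT cells (0.659-fold, log2 difference -0.60, SE 0.0539, adjusted p = 6.24e-05). Elovl6 read 4.75, 5.10 and 5.12 against 7.87, 8.37 and 7.93 (0.619-fold, adjusted p = 7.03e-05). Neither gene overlapped between the groups. Dhcr7 read 15.5, 14.2 and 13.9 against 20.2, 20.2 and 20.6 (0.716-fold, adjusted p = 0.000156). Fasn, Nsdhl and Fads2, with the values given above and 16.7, 17.3 and 16.0 FPKM for Nsdhl and 47.7, 44.6 and 46.9 for Fads2 in WT, were 0.731-fold, 0.726-fold and 0.722-fold (adjusted p = 0.000353, 0.000372 and 0.00048). Among the regulators Scap (0.824-fold) and Srebf2 (0.924-fold) were lower, the latter in only 4 of 14 alternative settings, while Srebf1 and Insig1 did not pass, with log2 differences of 0.05 and 0.04. Of 16 G1/S genes 15 were lower and 1 higher, beside 30.7% and 26% of all genes. Their sums were 601 to 652 FPKM against 868 to 878, and their part was not tested. The count of lower genes was 15 when all 14 libraries entered 1 fit.

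The comparison of genotypes and that of PGE1 with vehicle share no library, and their calls can be set side by side. Tcf7 itself, deleted in dKO cells, was higher after PGE1, at 7.37, 5.21 and 7.40 FPKM against 1.03, 0.850 and 1.53 after DMSO (log2 difference 1.84, adjusted p = 3.68e-05). In this pair 15 of the 30 genes were higher in both, against 166 of all 10566 genes tested in both. The 15 were 88.2% of the 17 higher after PGE1, beside 25 of 30 (83.3%) higher in dKO cells whatever PGE1 did. The shared count is therefore close to what the separate counts give. Over all genes, 6.91% of those higher after PGE1 were higher in dKO cells, beside 17.9% whatever PGE1 did. Of the other synthesis genes, 2 were higher in dKO cells and lower after PGE1 (Fasn and Acaca), and 0 were lower in dKO cells. Fasn was 1.39-fold in dKO against WT and 0.642-fold after PGE1 against DMSO, and Acaca 1.20-fold and 0.637-fold. Fdft1 and Srebf2 passed the threshold after PGE1 but not in dKO cells, at 1.82-fold and 1.52-fold against 1.21-fold and 1.15-fold in dKO, and the difference between these effects was not tested. Insig1 was 1.52-fold in dKO and 1.05-fold after PGE1, and Dhcr7 1.32-fold and 0.936-fold, likewise without a test of the difference. All 6 genes higher after PGE2 were also higher in dKO cells, as were 25 of all 30. Over all genes, 26.4% of those higher after PGE2 were higher in dKO cells.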

How the data were processed

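RNA was sequenced from 14 libraries of sorted mouse LSCs in 5 groups, taken from the sample titles. Per the submitters' processing notes, the tools were CASAVA 1.8, TopHat and Cufflinks, with build mm9, and the authors deposited 1 FPKM value for each of 24463 gene symbols. The sources used here do not give strand handling, read length or annotation. Library totals were derived from the smallest FPKM values, as the largest divisor that most of their inverses share. With these totals, all 19057 genes with reads gave whole reads at some gene length (100%, within 0.001 of a read). The length was searched for each gene, so this check is weak for genes with reads in few libraries. FPKM corrects for depth and gene length but not for changes in RNA composition.

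Two-sided tests used limma's moderated model with an intensity trend (version 3.58.1, R 4.3.3) and log2(FPKM + 1) values. Genes averaging 1 FPKM or more in the fitted libraries were kept, and p-values were adjusted over all of them by Benjamini-Hochberg (threshold 0.05). One fit held the 6 untreated libraries, another the 8 treated libraries, and WT with DMSO a further one. Log2 differences understate changes of low genes, and folds are ratios of mean FPKM. Tcf7 and Lef1 lay below the minimum in the untreated fit and were given an exact permutation test there. Fits were also run on simulated reads. Those had the same spread setting in every library and larger changes than most found here, so they check the code and not the calls. Alternatives were another pseudocount (0.1), no filter and a minimum mean of 5 FPKM, quantile and median-of-ratios scaling, 1 fit of all libraries, a replicate block, no trend, and leaving out each library.

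The genes, the related lists, the markers and the rule for named genes were chosen with earlier results of these data known. Values in every library are given for the 4 regulators and for up to 6 genes with the smallest p in a comparison, and up to 3 genes are named from each related list. Promoter stretches are those of the 6 genes with the smallest p after PGE1 among those higher in dKO cells and after PGE1 with 1 RefSeq window and a box before the start, plus Fasn. Remaining steps ran in Python 3.11.15 (pandas 2.3.3, numpy 2.4.6, matplotlib 3.10.9, scipy 1.17.1).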

Additional observations from a re-analysis of the deposited data

How the results depend on the processing

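The direction of every call over the 30 genes held under all alternatives run, and the calls themselves changed as follows. Genes higher in dKO cells numbered 13 to 28 when 1 library was left out, and genes lower after PGE1 2 to 4. After PGE2 the count of genes higher was 0 to 4 with 1 library left out, 3 without the intensity trend and 0 with the replicate block, and all genes called numbered 626, but 1207 in 1 fit of all 14 libraries, 269 with the replicate block and 125 to 520 with 1 library left out. Genes higher after PGE1 than after PGE2 numbered 5 to 11 with 1 library left out, and genes lower after DMSO than in WT 15 in 1 fit of all 14 libraries. Replicate numbers were not taken to pair the libraries. For dKO with WT, deviations of same-numbered libraries correlated at 0.04, 0.12 and 0.00 across genes, and those of different-numbered libraries at -0.08 to 0.03. For PGE1 with DMSO the values were -0.14, -0.25 and 0.25, and -0.37 to 0.41. Deviations from the mean of only 3 libraries cannot decide whether libraries were paired. With the replicate block the genes called higher in dKO and after PGE1 numbered 25 and 17.

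Only differences that had not passed the threshold changed sign, all of them small. With 1 library left out, Scap in dKO ranged from -0.00022 to 0.038, and Acly and Scd2 after PGE1 against DMSO from -0.19 to 0.00011 and from -0.26 to 0.030, the latter without both DMSO replicate 1 and PGE1 replicate 2, a setting chosen after seeing the data. After PGE2 against DMSO, Scap ranged from -0.015 to 0.092, Msmo1 from -0.028 to 0.11 and Ebp from -0.067 to 0.0030. For PGE1 against PGE2, Nsdhl read 0.038 with the replicate block and ranged from -0.068 to 0.042 with 1 library left out, Hsd17b7 from -0.16 to 0.094, Scd1 from -0.31 to 0.074, Lss from -0.013 to 0.11, Fdps from -0.011 to 0.24 and Tm7sf2 from -0.0057 to 0.11. For DMSO against WT, Ebp read 0.013 with quantile normalization and ranged from -0.058 to 0.012 with 1 library left out, and Msmo1 from -0.036 to 0.098. The cause was not tested. With 2 or 3 libraries a group, limma's spread estimate limits which differences can pass.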
